A study of Arabidopsis thaliana with 32 samples.

Results

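This account covers the flight response of 8 day old Arabidopsis thaliana roots of the Col-0 accession, as 812 loci that the authors' test called between spaceflight and ground growth. The members are all lines of the authors' deposited table for that comparison, and no line was left out. They are 812 of 9013 lines in the 8 comparison tables of the series, and they rest on 8 of its 32 libraries. Of the 812 loci, 771 hold a single annotated gene, 37 hold several genes and 4 hold none.

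RNA was sequenced from whole roots cut from light-grown seedlings. The flight group germinated and grew for 8 days on gelled medium plates in the Veggie plant growth hardware of the International Space Station, where astronauts harvested the seedlings into RNAlater. The ground group had the same accession, age, medium, light of 100 to 135 µmol per square metre per second and preservative, in a chamber at Kennedy Space Center that replayed the orbital temperature, carbon dioxide and lighting 48 h later. Both groups are untransformed wild type plants. Each has 4 replicates of 2 to 3 roots, so a replicate averages over few plants. The same study held a WS accession and a 4 day age, used here only where a difference from them was measured. The comparison asks how roots that had already grown for 8 days differed in orbit.

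Roots grown in light carry small plastids and respond to it. They read light through regulators such as HY5, which drives genes of photoprotection and flavonol synthesis, and through B-box proteins. Roots also switch to fermentation when oxygen runs short, and accumulate dehydrins and other protective proteins under cold, drought and abscisic acid. On the ground, gravity steers root growth and moves air and water around the root by convection and drainage.

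The table gives 1 FPKM value per group, fitted by the authors from 4 libraries, and 0 values per library, so spread and depth within a group cannot be shown. FPKM is a level per transcript length and sequencing depth. Changes are log2 ratios of flight to ground FPKM, and ± gives the error recovered from the ratio and its deposited statistic. A gene is said to have risen or fallen where the authors' Cuffdiff q-value was 0.05 or less. The smallest q-value in the authors' deposited table is 0.00263 and the largest 0.0493. Genes given below with their log2 ratio in this comparison have the smallest q-value unless another is given. The p-values rest on replicates that pool few roots of a single flight. Loci whose log2 ratio was within 1.96 of its own errors from 0 numbered 372 of the 812 in the authors' deposited table. The ± errors and the deposited p-values therefore do not follow from each other under a normal distribution.

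Markers of root layers were present in both groups, such as CYP86A1 of the endodermis at 41.3 and 25.7 FPKM and RHS18 of root hairs at 13.7 and 23.8 FPKM on the ground and in flight in the authors' deposited table.

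Most called loci were lower in flight. The authors' deposited table holds 252 loci higher in flight and 560 lower, so 69.0% of the calls were decreases. Of the 20035 loci tested, 4.05% were called, 1.26% higher and 2.8% lower. Changes were mostly small. The median log2 ratio of the 242 genes that rose was 0.59 and that of the 529 that fell was -0.53, with 48 genes at 1 or more and 51 at -1 or less.

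**Figure D1:**
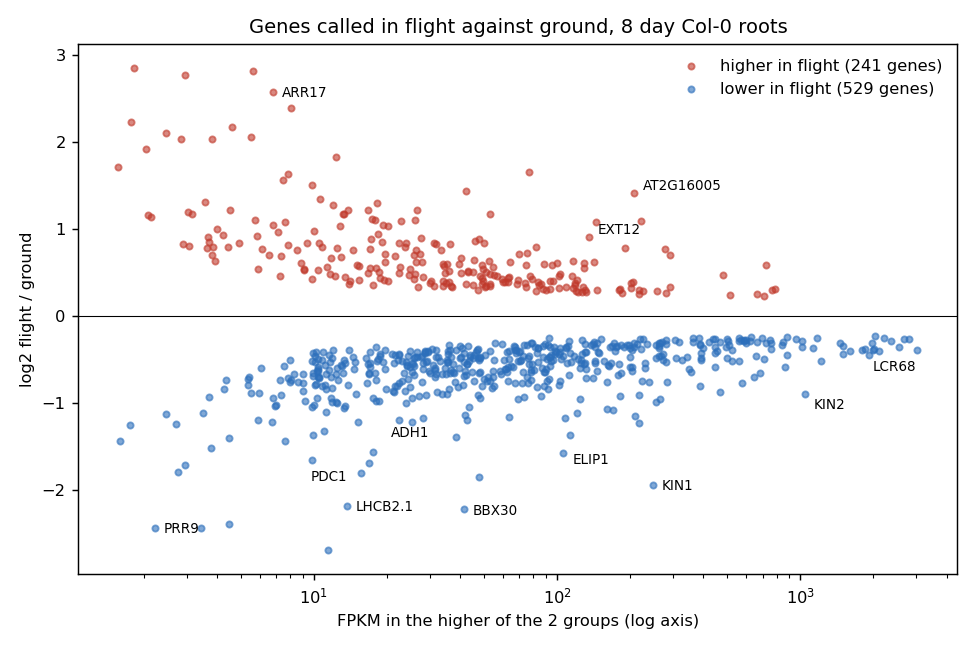
Log2 ratio of flight to ground against the FPKM of the higher group on a log axis, for single genes above 0 FPKM in both groups. Each point is a called gene, and all genes above 1000 FPKM lie below 0. The gap around 0 exists because the table lists called genes only.

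Of 43 listed genes for the light-harvesting complexes and photosystems, 17 fell, 0 rose and 26 were not called, 39.5% against the 2.8% of all tested loci. The median log2 ratio of the 17 was -0.75 against -0.53 over all genes that fell. The antenna gene LHCB1.3 of photosystem II was at 169 FPKM on the ground and 80.1 in flight, a log2 ratio of -1.08 ± 0.28 in the authors' deposited table. LHCB2.1, another antenna gene, had 13.6 FPKM on the ground and 3.02 in flight, a ratio of -2.17 ± 0.48 in the authors' deposited table. LHCB2.2 stood lower, with 3.43 and 0.634 FPKM (-2.43 ± 0.93) in the authors' deposited table, and can share reads with LHCB2.1, as the LHCB1 copies can with each other.

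The genes that fell belong to both photosystems. LHCB6, a minor antenna protein of photosystem II, fell from 43.4 to 21.1 FPKM (-1.04 ± 0.37) in the authors' deposited table. PSBS, which sets the dissipation of excess light, fell from 48.2 to 25.1 FPKM (-0.94 ± 0.28) in the authors' deposited table. From photosystem I, PSAH2 fell from 41.9 to 19.1 FPKM (-1.13 ± 0.64, q = 0.0204) in the authors' deposited table. The other 11 were LHCA2, LHCA3, LHCA4, LHCB1.5, LHCB4.1, PSAD1, PSAE1, PSAK, PSBP1 (q = 0.023), PSBQ2 and PSBTN (q = 0.0114), with log2 ratios from -0.60 for LHCB4.1 to -0.84 for PSAE1 in the authors' deposited table. LHCB5 lies in a called locus of several genes that was also lower. LHCA and PSA genes encode the antenna and subunits of photosystem I, and LHCB and PSB genes those of photosystem II.

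Summed over the 17 genes, the level was 918 FPKM on the ground and 519 in flight, 56.5% of ground, from the authors' deposited table. Ribulose bisphosphate carboxylase is the enzyme of carbon fixation, and its small subunit gene RBCS1A was the 1 carbon fixation gene of 11 that fell. That is 9.09% of the list, against 2.8% lower among all tested loci. RBCS1A went from 224 to 134 FPKM (-0.75 ± 0.18) in the authors' deposited table, 59.7% of ground. Chlorophyll synthesis genes were not called, 0 of 10. In bulk roots, fewer green cells and less RNA per green cell cannot be told apart. The part that shoot tissue carried over at dissection may have in these values was not tested.

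Some genes that answer to light through HY5 and the B-box proteins fell as well. Of 19 genes of light signalling and photoprotection, 6 fell and 0 rose, 31.6% lower against 2.8% of all tested loci. ELIP1 and ELIP2, early light-induced proteins that bind chlorophyll released under strong light, were close in level. ELIP1 fell from 106 to 35.8 FPKM (-1.57 ± 0.23) and ELIP2 from 113 to 43.9 FPKM (-1.36 ± 0.22) in the authors' deposited table. The B-box microprotein genes BBX30 and BBX31 fell from 41.5 to 8.92 FPKM (-2.22 ± 0.67) and from 15.6 to 4.48 FPKM (-1.80 ± 0.58) in the authors' deposited table. HY5 itself, a bZIP transcription factor, fell less, from 78.9 to 53.9 FPKM (-0.55 ± 0.21) in the authors' deposited table. SIG5, a sigma factor of plastid transcription, fell from 13.3 to 6.39 FPKM (-1.05 ± 0.30) in the same authors' deposited table. The summed level of the 6 was 368 FPKM on the ground and 153 in flight. MYB12, which activates flavonol synthesis, fell from 63.2 to 28.4 FPKM (-1.15 ± 0.21) in the authors' deposited table, with the flavonol glucosyltransferase UGT78D2 at -0.38 ± 0.21 (q = 0.00984), and 2 of 21 flavonoid genes fell in all.

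The upstream sequences of these genes are shown because the genes moved together and their regulators bind short motifs. Each line gives the 250 bases before the gene's annotated start in RefSeq's TAIR10.1, 5′ to 3′ on the gene's strand. Capitals mark the motifs searched on both strands. The G-box is CACGTG. Its core, ACGTG, was searched too and also lies within every G-box. The dehydration-responsive core is CCGAC. The evening element is AAATATCT. GATAAG is a motif named for light-regulated promoters. The motif of anaerobic promoters is TGGTTT.
LHCB1.3 (chr1:10477635-10477884, plus strand): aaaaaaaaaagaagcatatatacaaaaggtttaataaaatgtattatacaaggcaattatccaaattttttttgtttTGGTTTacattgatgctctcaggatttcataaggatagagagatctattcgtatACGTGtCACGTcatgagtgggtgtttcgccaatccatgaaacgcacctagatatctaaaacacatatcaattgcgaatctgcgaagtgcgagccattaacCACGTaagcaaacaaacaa
LHCB2.1 (chr2:1824481-1824730, minus strand): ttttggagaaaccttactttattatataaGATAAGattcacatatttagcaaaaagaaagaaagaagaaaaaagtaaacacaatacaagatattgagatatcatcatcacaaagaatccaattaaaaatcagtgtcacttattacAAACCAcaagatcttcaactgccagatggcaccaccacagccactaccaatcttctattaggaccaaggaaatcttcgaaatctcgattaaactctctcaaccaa
ELIP1 (chr3:8085670-8085919, minus strand): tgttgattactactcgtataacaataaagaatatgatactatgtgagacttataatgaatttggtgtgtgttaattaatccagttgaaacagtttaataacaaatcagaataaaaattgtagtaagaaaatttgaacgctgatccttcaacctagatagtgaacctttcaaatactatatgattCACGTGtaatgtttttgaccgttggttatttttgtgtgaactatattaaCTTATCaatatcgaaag
ELIP2 (chr4:8417992-8418241, plus strand): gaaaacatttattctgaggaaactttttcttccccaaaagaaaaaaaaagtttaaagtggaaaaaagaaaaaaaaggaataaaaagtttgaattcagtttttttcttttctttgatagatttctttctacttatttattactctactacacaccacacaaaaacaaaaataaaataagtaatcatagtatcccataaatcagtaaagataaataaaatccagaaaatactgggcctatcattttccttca
BBX30 (chr4:8708591-8708840, plus strand): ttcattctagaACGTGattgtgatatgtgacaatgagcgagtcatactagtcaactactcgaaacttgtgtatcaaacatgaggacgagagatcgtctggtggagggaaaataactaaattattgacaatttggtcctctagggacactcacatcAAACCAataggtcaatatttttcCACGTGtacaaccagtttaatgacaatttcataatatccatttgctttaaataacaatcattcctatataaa
BBX31 (chr3:7709934-7710183, minus strand): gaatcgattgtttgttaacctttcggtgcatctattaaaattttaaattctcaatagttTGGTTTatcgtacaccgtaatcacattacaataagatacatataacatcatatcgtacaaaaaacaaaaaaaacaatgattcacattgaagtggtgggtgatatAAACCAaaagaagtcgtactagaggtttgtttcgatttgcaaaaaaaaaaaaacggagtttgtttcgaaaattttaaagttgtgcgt

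ELIP1 holds a G-box that begins 66 bases before the start and BBX30 one that begins 72 bases before it. ELIP2 and BBX31, which fell alongside them, hold no G-box in this window. LHCB1.3 holds 3 matches to the core ACGTG and no G-box. The G-box was present in 35.3% of the windows of the 17 light-harvesting genes that fell, in 20.9% of all 43 listed, and in 6.49% of 27443 protein-coding windows read. Over all called genes it stood in 9.39% of those that fell and 11.7% of those that rose. These counts describe letters and no binding was measured.

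Clock genes were lower where they were called. Of 34 listed genes 7 fell and 0 rose, 20.6% lower against 2.8% of all tested loci. PRR9, a morning pseudo-response regulator of the oscillator, was low on the ground at 2.22 FPKM and lower in flight at 0.411 (-2.43 ± 0.90) in the authors' deposited table. The MYB-like gene RVE7 fell from 7.61 to 2.82 FPKM (-1.43 ± 0.54) and the cycling DOF factor CDF3 from 9.95 to 3.87 FPKM (-1.36 ± 0.64, q = 0.00984) in the authors' deposited table. The oscillator genes LUX and LHY had smaller ratios. Larger ratios at lower levels are not particular to the clock, as only called genes are listed. Over all called genes the median size of the log2 ratio was 0.93 below 10 FPKM in the higher group. It was 0.60 from 10 to under 50 FPKM and 0.47 from 50 to under 200. LUX, of the evening complex, went from 50.7 to 37.3 FPKM (-0.44 ± 0.24, q = 0.0114) in the authors' deposited table. LHY, a morning MYB factor, went from 10.2 to 7.66 FPKM (-0.42 ± 0.26, q = 0.0467) in the authors' deposited table. RVE2 (-0.55 ± 0.24) and LNK4 (-1.40 ± 0.62, q = 0.00828) complete the 7 in the authors' deposited table. Each group was harvested at a single age, and the hour of harvest is not given in the sources used here, so its part in these values was not tested. The upstream window of PRR9 is shown because it holds 2 G-boxes.
PRR9 (chr2:19232357-19232606, plus strand): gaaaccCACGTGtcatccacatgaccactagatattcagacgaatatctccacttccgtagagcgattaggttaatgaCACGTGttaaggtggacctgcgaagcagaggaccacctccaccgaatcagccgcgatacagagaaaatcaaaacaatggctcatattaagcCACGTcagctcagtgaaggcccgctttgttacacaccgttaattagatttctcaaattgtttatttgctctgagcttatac

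Of 29 genes of fermentation and low oxygen, 7 fell, 0 rose and 22 were not called, against 2.8% lower among all tested loci. The summed level of the 7 was 289 FPKM on the ground and 175 in flight. Pyruvate decarboxylase PDC1 and alcohol dehydrogenase ADH1 carry out the steps from pyruvate to ethanol. PDC1 (AT4G33070, TAIR10 chromosome 4, 15952289 to 15954771) fell from 16.8 to 5.22 FPKM (-1.69 ± 0.30) in the authors' deposited table. ADH1 (AT1G77120, chromosome 1, 28975394 to 28978745) fell from 38.4 to 14.7 FPKM (-1.39 ± 0.36) in the authors' deposited table. The desaturase gene SAD6 was at 23.9 FPKM on the ground and 11.9 in flight (-1.001 ± 0.325) in the authors' deposited table.

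Sensing and regulatory genes of the list fell by less. PCO1, a cysteine oxidase that marks oxygen-responsive transcription factors for turnover, fell from 25.8 to 16.2 FPKM (-0.68 ± 0.27) in the authors' deposited table. The transcription factor gene LBD41 fell from 29.9 to 19.3 FPKM (-0.63 ± 0.24) in the authors' deposited table. HB1, a haemoglobin that scavenges nitric oxide, fell from 144 to 101 FPKM (-0.51 ± 0.19) and the sucrose synthase gene SUS1 from 10.4 to 7.42 FPKM (-0.49 ± 0.26, q = 0.0129) in the authors' deposited table. PCO2 lies in a called locus of several genes that was also lower. The upstream windows of the fermentation pair are shown for their TGGTTT matches, 3 in PDC1 and 1 in ADH1.
ADH1 (chr1:28975005-28975254, plus strand): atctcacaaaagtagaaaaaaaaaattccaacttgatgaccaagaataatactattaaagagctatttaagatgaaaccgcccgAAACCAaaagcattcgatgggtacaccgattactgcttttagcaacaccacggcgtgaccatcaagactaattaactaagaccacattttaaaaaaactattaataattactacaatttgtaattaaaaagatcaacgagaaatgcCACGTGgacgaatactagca
PDC1 (chr4:15954804-15955053, minus strand): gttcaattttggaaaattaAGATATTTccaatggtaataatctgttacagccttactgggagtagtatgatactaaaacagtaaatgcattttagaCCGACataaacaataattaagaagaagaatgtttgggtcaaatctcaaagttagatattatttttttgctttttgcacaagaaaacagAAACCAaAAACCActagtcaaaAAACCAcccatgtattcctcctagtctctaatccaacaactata
TGGTTT stood in 57.1% of the windows of the 7 low oxygen genes that fell, in 41.4% of the 29 listed and in 27.3% of all windows. The same motif stood in 64.7% of the windows of the 17 light-harvesting genes that fell and in 46.5% of the 43 listed. ADH1 also holds a G-box 20 bases before its start.

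The cold, drought and abscisic acid list gave 10 decreases and 0 increases among 41 genes, 24.4% lower against 2.8% of all tested loci. KIN1 and KIN2 are a neighbouring pair that encode small, closely alike cold-induced proteins, so reads can be split between them. KIN1 (AT5G15960, TAIR10 chromosome 5, 5209898 to 5210727) fell from 248 to 64.8 FPKM (-1.94 ± 0.22) in the authors' deposited table. KIN2 fell from 1046 to 561 FPKM (-0.90 ± 0.16) in the authors' deposited table. Dehydrins, which protect membranes and proteins from drying, were among the rest. LTI30 fell from 282 to 167 FPKM (-0.76 ± 0.20), ERD10 from 203 to 136 FPKM (-0.58 ± 0.27) and COR47 from 391 to 281 FPKM (-0.48 ± 0.21) in the authors' deposited table. ERD14 changed least, from 448 to 373 FPKM (-0.27 ± 0.15, q = 0.0144) in the authors' deposited table.

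The remaining 4 of the cold and drought list were GOLS3, RD29A, COR413-PM1 and ABF3. GOLS3 makes galactinol, a precursor of protective sugars, and fell from 6.74 to 2.90 FPKM (-1.21 ± 0.48) in the authors' deposited table. RD29A, a classic stress-induced gene, was at 3.70 and 1.94 FPKM (-0.93 ± 0.48, q = 0.0129) in the authors' deposited table. ABF3, a bZIP factor that carries the abscisic acid signal to promoters, fell from 26.5 to 20.0 FPKM (-0.41 ± 0.26, q = 0.0493) in the authors' deposited table. The windows of KIN1 and KIN2 are shown to compare the pair: each holds 1 ACGTG match, and the KIN1 window also holds AAATATCT.
KIN1 (chr5:5209467-5209716, plus strand): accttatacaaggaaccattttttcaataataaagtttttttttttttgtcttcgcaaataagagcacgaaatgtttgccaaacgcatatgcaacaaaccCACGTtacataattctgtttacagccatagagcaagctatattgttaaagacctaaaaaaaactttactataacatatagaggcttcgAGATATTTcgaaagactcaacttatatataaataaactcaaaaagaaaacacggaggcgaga
KIN2 (chr5:5211469-5211718, plus strand): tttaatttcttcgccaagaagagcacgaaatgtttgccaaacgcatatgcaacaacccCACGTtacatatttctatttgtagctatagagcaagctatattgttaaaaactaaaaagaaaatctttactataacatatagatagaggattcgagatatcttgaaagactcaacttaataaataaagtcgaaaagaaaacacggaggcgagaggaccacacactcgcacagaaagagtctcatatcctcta
ACGTG was present in 5 of the 10 windows of genes that fell, in 51.2% of the 41 listed and in 22.9% of all windows.

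**Figure D2:**
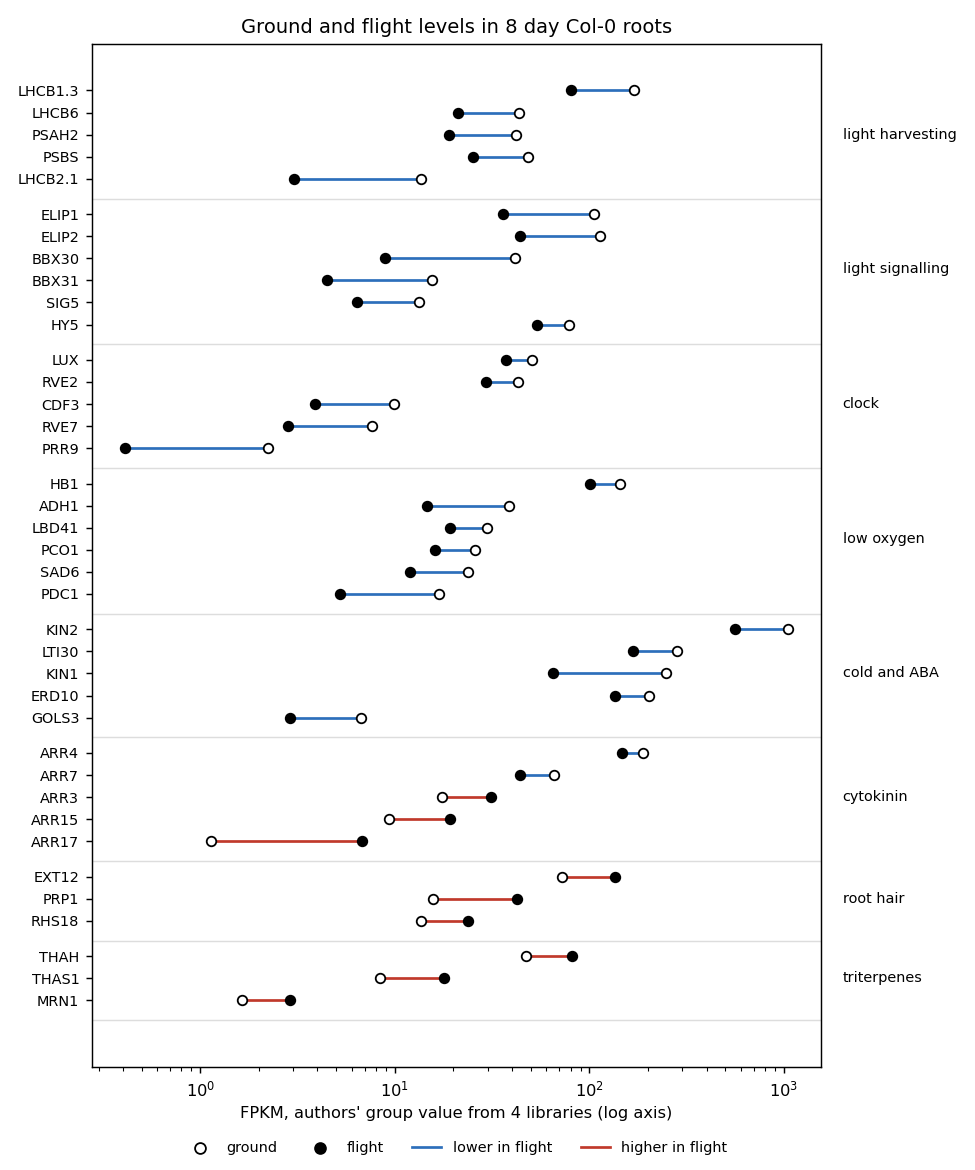
FPKM of each gene on the ground (open circle) and in flight (filled circle), joined by a line, on a log axis and grouped by list. Each circle is the authors' group value from 4 libraries. The plotted genes of light, clock, low oxygen and cold lists shift left, while those of root hair and triterpene lists shift right.

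Of 19 listed aquaporin genes, which encode water channels, 5 fell, 0 rose and 14 were not called, 26.3% lower against 2.8% of all tested loci. NLM1, an aquaporin-family gene outside the list, rose from 86.4 to 109 FPKM (0.33 ± 0.20, q = 0.0289) in the authors' deposited table. The vacuolar channel gene TIP2;3 changed most, from 69.4 to 35.8 FPKM (-0.95 ± 0.22) in the authors' deposited table. The plasma membrane channel gene PIP2;1 fell from 660 to 479 FPKM (-0.46 ± 0.15) in the authors' deposited table. PIP2;2 (-0.29 ± 0.15, q = 0.0114), PIP2;3 (-0.53 ± 0.31, q = 0.023) and TIP1;2 (-0.25 ± 0.15, q = 0.0176) also fell in the authors' deposited table. PIP2;2 and PIP2;3 are close copies, and their reads can be split.

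The endodermis is the cell layer that seals the root's core. Of 29 genes for its Casparian strip and suberin 6 fell, 0 rose and 23 were not called, against 2.8% lower among all tested loci. The 6 fell by log2 ratios of -0.41 to -0.70. The fatty acid reductase gene FAR5 fell from 52.3 to 32.2 FPKM (-0.70 ± 0.22) and the suberin hydroxylase gene CYP86A1 from 41.3 to 25.7 FPKM (-0.68 ± 0.25) in the authors' deposited table. The acyltransferase gene GPAT5 (-0.68 ± 0.31), the transporter gene ABCG2 (-0.66 ± 0.38, q = 0.0367) and the dirigent gene AT2G39430 (-0.41 ± 0.23, q = 0.0377) also fell in the authors' deposited table. Families were grouped by RefSeq product after the values were seen. Beside their counts, 2.8% of all tested loci were lower and 1.26% higher. In the peroxidase group 11 genes fell and 3 rose of 78. The group takes in RHS18, which rose and has the product name root hair specific 18. The dirigent family had 5 lower and 1 higher of 26, and HXXXD acyl-transferase genes had 1 lower and 5 higher of 58. The lipid-transfer and 2S albumin superfamily had 13 genes lower and 0 higher of 133. Lower there were DIR1, a lipid-transfer protein of systemic immunity, from 182 to 96.2 FPKM (-0.92 ± 0.21), and AT4G22460, from 124 to 64.2 FPKM (-0.95 ± 0.27), in the authors' deposited table. Xylem and lignin genes had 2 lower and 0 higher of 31, 6.45% lower against 2.8% of all tested loci. The 2 were the laccase gene LAC4 (-0.53 ± 0.24) and the peroxidase gene PRX72 (-0.35 ± 0.19, q = 0.00649) in the authors' deposited table.

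Xyloglucan enzyme (XTH) genes went both ways, while called expansin genes fell. Among 16 expansin and xyloglucan enzyme genes 3 rose and 4 fell, 18.8% and 25% against 1.26% and 2.8% of all tested loci. The 3 that rose, XTH16 (q = 0.00649), XTH17 and XTH19, are all xyloglucan enzyme genes. Of 34 expansin genes grouped by product after the values were seen, 4 fell and 0 rose. XTH19 rose from 45.8 to 75.6 FPKM (0.72 ± 0.20) and XTH17 from 41.2 to 56.5 FPKM (0.46 ± 0.23, q = 0.00468) in the authors' deposited table. XTH9 fell from 356 to 229 FPKM (-0.64 ± 0.26) and the expansin gene EXPA4 from 455 to 346 FPKM (-0.40 ± 0.15) in the authors' deposited table. XTH enzymes cut and rejoin xyloglucan chains.

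**Figure D3:**
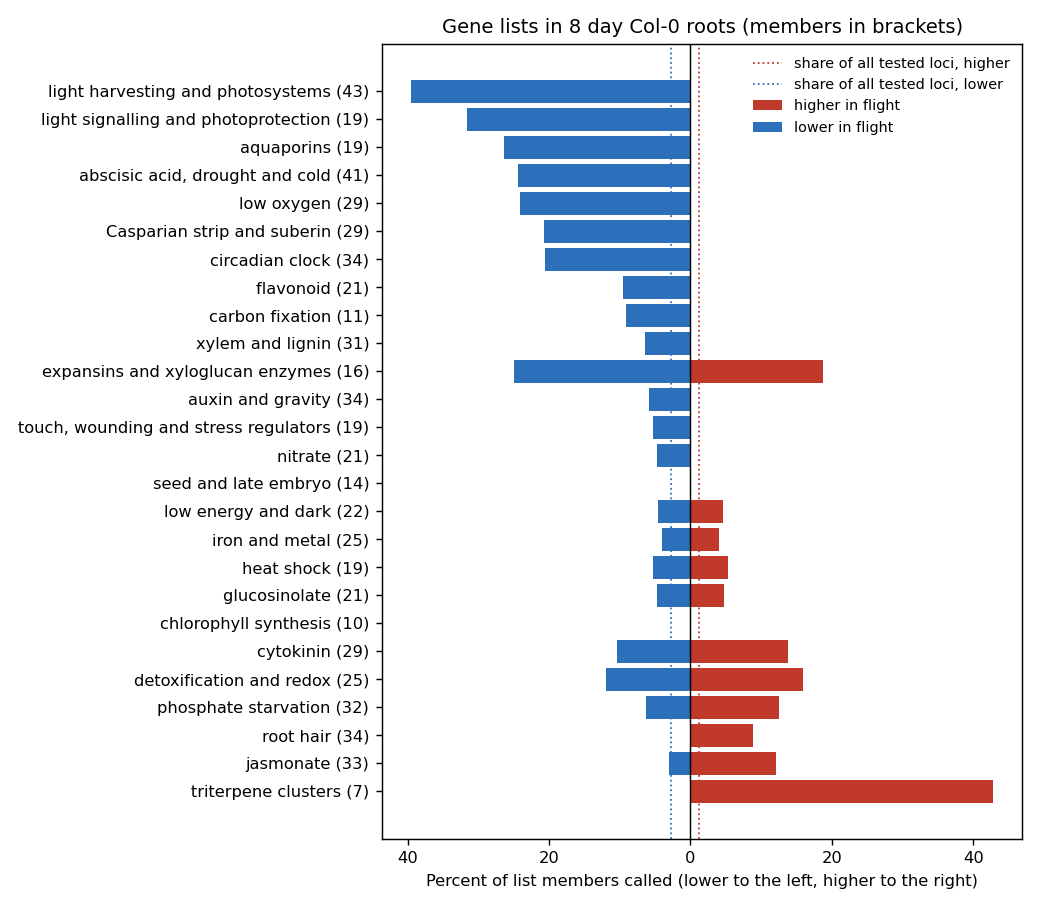
Percent of each list's members called lower (left) and higher (right) in flight, with list size in brackets. Dotted lines mark the percent of all tested loci called lower, 2.8, and higher, 1.26. Of the lists, light harvesting reaches furthest to the left and the 7 triterpene genes furthest to the right.

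Cytokinin response genes had 4 members higher and 3 lower of 29, 13.8% and 10.3% against 1.26% and 2.8% of all tested loci. Type-A response regulators are induced by cytokinin and dampen its signal. ARR17 (AT3G56380, TAIR10 chromosome 3, 20905258 to 20906661) rose from 1.14 to 6.78 FPKM (2.57 ± 1.05) in the authors' deposited table. ARR15 rose from 9.35 to 19.3 FPKM (1.04 ± 0.47) and ARR3 from 17.5 to 31.3 FPKM (0.84 ± 0.27) in the authors' deposited table. The regulators at higher levels fell instead. ARR7 went from 65.7 to 43.9 FPKM (-0.58 ± 0.24) and ARR4 from 189 to 148 FPKM (-0.35 ± 0.16) in the authors' deposited table. Of the cytokinin response factors, CRF2 rose (0.55 ± 0.27, q = 0.00468) and CRF5 fell (-0.76 ± 0.39, q = 0.00468) in the authors' deposited table.

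Among 33 genes of jasmonate signalling 4 rose and 1 fell, 12.1% and 3.03% against 1.26% and 2.8% of all tested loci. The JAZ proteins repress jasmonate signalling and are induced by it. JAZ7 rose from 2.54 to 7.85 FPKM (1.63 ± 0.70), and JAZ2 rose from 31.8 to 45.1 FPKM (0.51 ± 0.22) in the authors' deposited table. JAZ5 rose from 5.02 to 8.50 FPKM (0.76 ± 0.44, q = 0.0241) in the authors' deposited table. The storage protein gene VSP2 fell from 76.2 to 44.7 FPKM (-0.77 ± 0.46, q = 0.0377) in the authors' deposited table. TAT3, a tyrosine aminotransferase gene, stayed low at 0.538 and 2.04 FPKM (1.92 ± 0.85, q = 0.0176) in the authors' deposited table.

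Some genes of triterpene synthesis and root hairs were higher, against the 1.26% of all tested loci. Of 7 genes in the gene clusters for thalianol and marneral, triterpenes made in roots, 3 rose and 0 fell. Thalianol synthase THAS1 (AT5G48010, TAIR10 chromosome 5, 19456960 to 19461980) rose from 8.37 to 17.9 FPKM (1.10 ± 0.29) in the authors' deposited table. The adjacent cytochrome P450 gene THAH rose from 47.3 to 81.8 FPKM (0.79 ± 0.30) in the authors' deposited table. Marneral synthase MRN1 rose from 1.63 to 2.91 FPKM (0.83 ± 0.46, q = 0.0161) in the authors' deposited table. Root hair genes had 3 higher and 0 lower of 34, and 31 were not called. The cell wall protein genes PRP1 and EXT12 rose from 15.6 to 42.4 FPKM (1.44 ± 0.45) and from 72.2 to 135 FPKM (0.90 ± 0.23), and the peroxidase gene RHS18 from 13.7 to 23.8 FPKM (0.80 ± 0.34), in the authors' deposited table.

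Phosphate starvation genes had 4 higher and 2 lower of 32, 12.5% and 6.25% against 1.26% and 2.8% of all tested loci. The SPX domain gene SPX1, a regulator of phosphate responses, rose from 32.7 to 49.1 FPKM (0.59 ± 0.23) and the ribonuclease gene RNS1 from 5.26 to 9.40 FPKM (0.84 ± 0.43, q = 0.00984) in the authors' deposited table. The phosphate transporter gene PHT1;1, whose near copies can take its reads, fell from 113 to 84.4 FPKM (-0.43 ± 0.20) in the authors' deposited table. PEPC1 (AT1G17710), a phosphatase-related gene, was listed at 0 FPKM on the ground and 2.12 in flight (q = 0.0493) in the authors' deposited table, so no fold is given. Among detoxification and redox genes 4 rose and 3 fell of 25, 16% and 12% against the same shares of all tested loci. The glucosyltransferase gene UGT74E2 rose from 0.931 to 3.80 FPKM (2.03 ± 0.68) and the glutathione transferase gene GSTU25 from 41.7 to 64.0 FPKM (0.62 ± 0.23) in the authors' deposited table.

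Lists tied to gravity and touch had shares called of 5.88% and 5.26%, near the 4.05% of all tested loci. Auxin and gravity genes had 2 lower and 0 higher of 34, the auxin-induced repressor gene IAA2 (-0.34 ± 0.20, q = 0.0161) and the lateral root gene LBD29 (-0.69 ± 0.42, q = 0.0332) in the authors' deposited table. Of 19 touch, wounding and stress regulators 1 fell, the calmodulin-like gene CML24 (-0.34 ± 0.22, q = 0.0461) in the authors' deposited table. Heat shock genes had 1 higher and 1 lower of 19, HSP90.1 from 5.09 to 9.99 FPKM (0.97 ± 0.30) and HSP18.2 from 24.3 to 14.8 FPKM (-0.72 ± 0.37) in the authors' deposited table. Low energy, iron and glucosinolate lists each had 1 higher and 1 lower, of 22, 25 and 21, and nitrate had 1 lower of 21. No seed or late embryo gene was called, 0 of 14. Absence from the table is no evidence of an equal level.

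Among genes outside the lists, AT1G73120, an F-box protein gene (TAIR10 chromosome 1, 27497186 to 27497950), fell from 11.4 to 1.78 FPKM (-2.68 ± 0.85) in the authors' deposited table. AT5G55620, an uncharacterized protein gene, rose from 0.798 to 5.61 FPKM (2.81 ± 1.05, q = 0.00649) in the authors' deposited table. AT5G04120, of the phosphoglycerate mutase family, rose from 24.4 to 77.0 FPKM (1.66 ± 0.48) and AT2G16005, a lipid recognition protein gene, from 78.2 to 207 FPKM (1.41 ± 0.20) in the authors' deposited table. Methionine gamma-lyase MGL, which breaks down methionine, rose from 2.53 to 7.47 FPKM (1.56 ± 0.62) in the authors' deposited table. The microRNA precursors MIR158b (2.39 ± 1.34, q = 0.0277) and MIR160b (1.82 ± 0.63) were also higher in the authors' deposited table. They are annotated at 85 and 89 nt, and their deposited loci are wider. The length behind each FPKM is not known, so these values may not be dependable.

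The share of decreases rose with level. Below 10 FPKM in the higher group 47 of 100 called genes fell, from 10 to under 50 FPKM 205 of 306, and at 1000 FPKM or more all 24 in the authors' deposited table. Among those 24 were the defensin-like gene LCR68, from 3035 to 2323 FPKM (-0.39 ± 0.14), the superoxide dismutase gene FSD1, from 2362 to 1936 FPKM (-0.29 ± 0.14), and the metallothionein gene MT2B, from 1997 to 1528 FPKM (-0.39 ± 0.15), in the authors' deposited table. By longest annotated transcript, 72 of 87 called genes under 800 nt fell, 426 of 618 from 800 to under 2500 nt, and 31 of 66 at 2500 nt or more. Protein-coding genes that fell had a median length of 1345 nt and those that rose 1608 nt, beside 1514 nt over the reference. Single-exon genes made up 29.5% of those that fell, 16.5% of those that rose and 20.8% of the reference. The part of library quality or of the scaling in these patterns was not tested. Calls were spread over the 5 chromosomes, with 0 from organelles and 0 runs of 3 or more neighbouring called genes in the same direction.

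**Figure D4:**
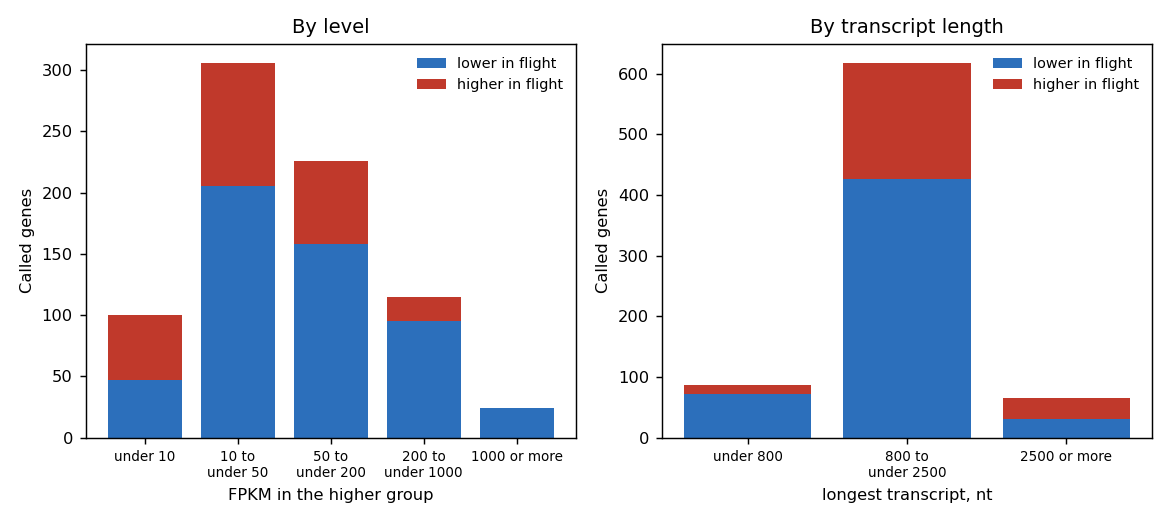
Called genes in classes of FPKM (left) and of longest annotated transcript (right), split into lower and higher in flight. All 24 genes at 1000 FPKM or more were lower, and 35 of 66 at 2500 nt or more were higher.

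Changes in 8 day WS roots, which share no library with these, overlapped in part. Of the loci tested in WS 5.11% were called, 2.36% higher and 2.75% lower. Of 771 called genes 134 were also called there, 17.4% of these and 16.5% of the 810 called in WS. Of the 134, 32 were higher in both, 91 lower in both and 11 opposite. KIN1 and KIN2 were lower in WS too, at -1.68 and -1.08, and ARR17, ARR3, PRP1 and EXT12 were higher, at 2.19, 0.98, 1.09 and 0.83, in the authors' deposited table for WS. None of the 17 light-harvesting genes was called in WS. A call in only 1 accession does not show that the accessions differ.

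The difference between the accessions was tested gene by gene, as the gap between the log2 ratios over its combined error. The test was two-sided and normal, with Benjamini-Hochberg adjustment over the 134. These genes entered only because both ratios were called, so opposite directions bring a gap by selection. The p-values take no account of that selection. The difference passed for 4 genes, and for 2, SAD6 and AT1G12805, with errors 1.5 times as large. SAD6 fell in Col-0 but rose in WS from 4.19 to 22.5 FPKM (2.43 ± 0.46) in the authors' deposited tables, a difference of -3.43 ± 0.56 (adjusted p = 1.4e-07). AT1G12805, a nucleotide binding protein gene, went from 47.7 to 13.3 FPKM in Col-0 and from 4.49 to 29.0 in WS in the authors' deposited tables, a difference of -4.53 ± 0.85 (adjusted p = 5.88e-06). With errors from the authors' deposited tables, the knottin-like gene AT2G43535 (0.83 ± 0.26, adjusted p = 0.0415) and MIR158b (5.54 ± 1.59, adjusted p = 0.0212) passed too. LBD41 was also opposite, at 0.55 in WS in the authors' deposited table, and did not pass.

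Against 4 day Col-0 roots, again from separate libraries, more genes were called in both. Of the loci tested at 4 days 7.21% were called, 3.1% higher and 4.11% lower. Of the 771 genes 308 were called at 4 days as well, 39.9% of these and 23.2% of the 1326 called there. Of the 308, 80 were higher in both, 212 lower in both and 16 opposite. All 6 light signalling genes that fell at 8 days fell at 4 days too, at -2.72 for BBX30, -2.42 for ELIP1, -2.15 for ELIP2, -1.75 for BBX31, -1.72 for SIG5 and -0.55 for HY5 in the authors' deposited table. Of the light-harvesting genes that fell, 3 of 17 were called lower at 4 days. Differences between the ages passed for 13 genes after adjustment over the 308, and for 0 with errors 1.5 times as large. The 308 were likewise selected by calls at both ages, which the p-values do not take into account. PRX72 (1.80 ± 0.33, adjusted p = 1.4e-05) and AT2G39430 (1.90 ± 0.45, adjusted p = 0.00232) fell less at 8 days than at 4 days, with errors from the authors' deposited tables. MRN1 rose at 8 days and fell at 4 days (-1.39 ± 0.48) in the authors' deposited tables, a difference of 2.23 ± 0.66 (adjusted p = 0.0226). KIN1 fell further at 8 days, by a difference of -1.27 ± 0.39 (adjusted p = 0.0247) with errors from the authors' deposited tables.

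**Figure D5:**
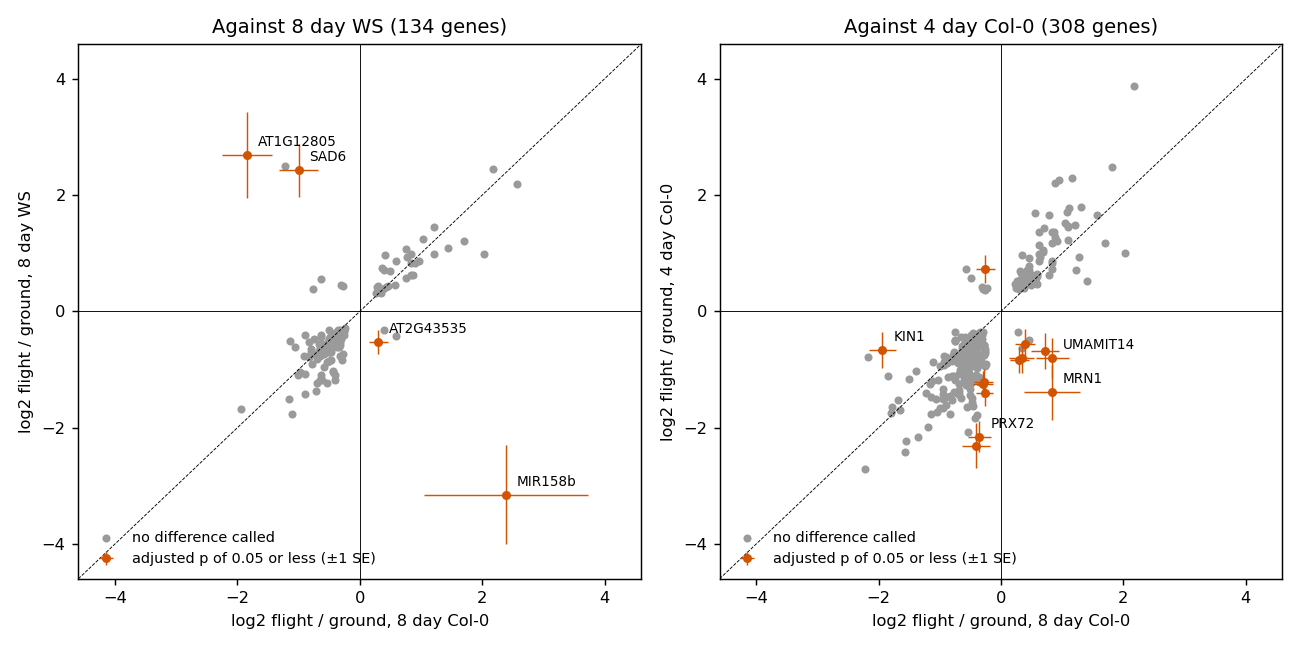
Log2 ratio of flight to ground in 8 day WS (left, 134 genes) and 4 day Col-0 roots (right, 308 genes) against that in 8 day Col-0 roots, for genes called in both. Orange points with bars of 1 SE differ at an adjusted p of 0.05 or less, and the dashed line marks equal ratios. SAD6 and AT1G12805 lie at upper left, lower in Col-0 and higher in WS.

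Levels also shift as roots age. The age tables share their 8 day libraries with this comparison, so their values are set side by side only. On the ground, ADH1 rose between 4 and 8 days by 2.98 and in flight by 1.95 in the authors' deposited tables. PDC1 rose by 1.76 and 1.60, HB1 by 1.79 and 1.01, PCO1 by 1.94 and 1.27 and LBD41 by 1.62 and 0.78 in the authors' deposited tables. SAD6 rose by 1.66 on the ground and 2.31 in flight in the same authors' deposited tables. KIN1 and KIN2 rose by 1.19 and 0.81 on the ground and were not called in flight in the authors' deposited tables. PRX72 went the other way with age, at -1.04 on the ground and 0.75 in flight in the authors' deposited tables.

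Genes called in all 4 flight tables of the series numbered 5, the smallest table being 4 day WS with 0.715% of loci called, 0.352% higher and 0.363% lower. AT2G39430, the sugar transporter gene SWEET17 (from 140 to 112 FPKM, -0.32 ± 0.18, q = 0.0176) and the lipid-transfer gene AT3G22600 (from 505 to 415 FPKM, -0.28 ± 0.16, q = 0.00984) were lower in all 4 of the authors' deposited tables. AT2G39980, an acyl-transferase gene at low level, was higher in all 4 and rose from 0.481 to 1.57 FPKM here (1.71 ± 0.77, q = 0.0241) in the authors' deposited table. AT4G29905 was lower in 3 tables, here from 362 to 294 FPKM (-0.30 ± 0.17, q = 0.00649), and higher in 4 day Col-0 roots in the authors' deposited tables.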

How the data were processed

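RNA sequencing of 8 libraries, 4 flight and 4 ground, was summarised by the authors as a single comparison table. Per the labels' protocols, full-length cDNA was prepared from 10 ng of RNA and amplified over 8 PCR cycles, so the strand is not marked and overlapping or antisense genes are not told apart. The submitters' processing notes name Trimmomatic 0.36, FastQC 0.11.2, STAR 2.5.1b, Picard, Cufflinks, Cuffdiff and TAIR10, without settings. The FPKM values, log2 fold changes, test statistic scores, p-values and q-values were deposited by the authors, 1 per group or locus and for called loci only. A locus region as deposited can run beyond its gene.

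Here, log2 ratios were recomputed from the FPKM values, and errors taken as the log2 fold change over the test statistic. The count of tested loci follows from p, rank and q. Names, lengths and upstream sequences came from RefSeq TAIR10.1, where all 771 single-gene loci overlap the gene of the same identifier. Analysis used Python 3.11.15, pandas 2.3.3 and scipy 1.17.1. The difference test was tried on simulated ratios with normal noise of the size of the recovered errors. The simulation had no calling filter, whereas the genes tested were all called in both comparisons, so it does not check the test as used. No test over samples could be run.

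The comparison's members and the 26 gene lists (638 genes) were chosen with earlier results of these data known. Lists of the families were formed after values were seen. Named were the 12 largest changes on each side at 5 FPKM or more, the 10 highest levels, up to 6 called members per list, genes called in 4 flight tables and up to 10 opposite genes per other table, with the chief ones in the text. Named from outside that rule, after their values were seen, were LHY, SUS1, COR47, ERD14, COR413-PM1, ABF3, further light-harvesting genes, ARR4, NLM1, DIR1 and AT4G22460. Also outside it were PCO2, and AT3G32980 and AT4G12545, whose difference between ages passed. Values of 1 called list member are left out here. Depth per library is unknown. Alternatives were a stricter q-value, a size limit, a level minimum, single genes, a length window, a pseudocount, levels from the age tables and larger errors.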

Additional observations from a re-analysis of the deposited data

Results flagged for a closer look

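A difference in flight response between accessions passed the test for 4 genes, and for 2 with errors 1.5 times as large, given here as the log2 ratio in 8 day Col-0 minus that in 8 day WS. SAD6 differed by -3.43, AT1G12805 by -4.53, MIR158b by 5.54 and AT2G43535 by 0.83. All 4 have opposite directions in the 2 accessions. Only genes called in both accessions were tested, so opposite directions bring a gap by selection. MIR158b is annotated at 85 nt within a wider deposited locus. The length behind its FPKM is not known, so the value may not be dependable.

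A difference between ages passed for 13 genes, and for 0 with errors 1.5 times as large, given as the log2 ratio at 8 days minus that at 4 days in Col-0. The lignin and barrier genes PRX72 and AT2G39430 differed by 1.80 and 1.90, and the peroxidase gene AT3G32980 by 1.13. Of amino acid transporter family genes, SIAR1 differed by 1.14 and UMAMIT14 by 1.64. CYP82F1 differed by 1.40, the extensin-like gene AT5G06630 by 1.15, marneral synthase MRN1 by 2.23 and AT3G45070 by 0.943. Of lipid-transfer family genes, AT3G22600 differed by 0.938, AT4G12545 by 0.946 and AT5G01870 by -0.988. KIN1 differed by -1.27. Of the 13, 7 have opposite directions at the 2 ages, and only genes called at both ages were tested.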

How the results depend on the processing

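No paired analysis was possible because the deposited table holds group values and no column per library, and leaving out a replicate was not possible for the same reason. Of the 252 loci that rose and 560 that fell, 150 and 359 had a q-value of 0.01 or less, and 51 and 52 a log2 ratio of 1 or more in size, so increases and decreases were nearly equal in number there. A limit of that size left 10 of 29 list genes that rose and 20 of 84 that fell. With errors 1.5 times as large, 2 of the 4 genes that differed from WS (SAD6 and AT1G12805) and 0 of the 13 that differed from 4 days passed. The cause was not tested, beyond the larger error itself. A level minimum of 5 FPKM, single genes only, and transcripts of 800 to under 2500 nt each kept the counts of loci within 1.5 times. Of 33 list counts the q-value limit moved 9, the size limit 30, the level minimum 1 and the length window 3. No direction of a named gene turned under a pseudocount of 1 FPKM, which moved 5 ratios beyond their error and left 126 within it, or, for the 42 named genes with both levels there, under levels from the age tables. Those levels moved the ratio by a median of 0.02 over 193 genes. Unknown depth limits what can be said of genes not called.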
